A study of Mus musculus with 6 samples.

Results

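The genes described here are 35 aminoacyl-tRNA synthetase genes, 19 whose enzymes work in the cytosol and 16 whose enzymes work in mitochondria. They were taken from a list of symbols and matched by GENCODE mouse symbol among the 53801 genes listed in the count files. The list does not hold every synthetase gene of the mouse. The question was how the compartments compared between tumours grown from sevoflurane-primed melanoma cells and control tumours, with Tars2, the mitochondrial threonine enzyme, set against the others.

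Aminoacyl-tRNA synthetases join each amino acid to its tRNAs, the step in which the genetic code is read into amino acids before translation. The cytosolic and the mitochondrial enzymes are mostly encoded by separate nuclear genes, and the mitochondrial ones carry the suffix 2. Gars and Kars are exceptions, since each gives rise to the enzyme of both compartments for glycine and lysine. Several cytosolic enzymes are bound together in the multisynthetase complex, and many cytosolic synthetase genes are known targets of ATF4, a transcription factor of the response to amino acid shortage.

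RNA was sequenced from melanomas that had grown under the skin of wild type C57BL/6 mice, 10 to 12 weeks old, from B16-F10 cells, a mouse melanoma line. For the SEVO group the cells were first primed with the volatile anaesthetic sevoflurane at 2%, during 30 min of flushing and 2 h of further incubation in a closed chamber. In the CTRL group the cells were not primed, and each group held 3 tumours (n = 3). The cell type label reads monocytes, whereas the source label reads tumour, and the study describes RNA from pieces of tumour. All 8 melanocyte markers looked for, among them Pmel, Tyrp1 and Dct, had reads in every tumour, with summed levels of 639 to 1859 CPM (counts scaled to a common library size by TMM). Of 11 monocyte and macrophage markers only Csf1r and Cd68 had enough reads to be tested, and Adgre1, Itgam, Cd14, Lyz2, C1qa and C1qb had 0 to 9 reads per tumour. The remaining markers had 0 to 4 reads (Ly6c2), 0 to 15 reads (Ccr2) and 2 to 26 reads (Ptprc) per tumour. The samples are called tumours here after the source label and the study's description. Low marker counts do not show that monocytes or macrophages were absent.

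The reads on genes numbered 723431 to 1348676 per tumour, 2.06% to 4.61% of the uniquely aligned reads, and the 35 synthetase genes took 531 to 912 of them (0.0676% to 0.0858%). A single read was worth 1.07 to 1.25 CPM. The predicted genes Gm10800 and Gm10801 together took 1.31% to 49.0% of the counted reads, and both extremes were CTRL tumours. Within each group the counts varied by more than sampling noise (chi-square of 4.35 to 51.6 per gene), so the spread between tumours is the error used throughout.

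The promoters of the cytosolic genes give the sequence context. ATF4 and its partners of the C/EBP family bind a composite element, for which TGATGNAA was searched on both strands in RefSeq windows from 250 bases before to 50 bases after each gene's start (GRCm38.p6). A match was found in 5 of the 12 cytosolic genes with a window (41.7%), in 0 of the 14 mitochondrial genes with a window, and in 1219 of all 27025 genes in the table (4.51%). The narrower form TGATGCAA, every match of which is also a match of the first, was found in 4 of the 12 cytosolic genes (33.3%), in 0 of the 14 mitochondrial genes and in 1.03% of all genes. The 28 bases around the match are shown for 4 of these genes, 5′ to 3′ on the strand of the gene, with the match in capitals. A match on the opposite strand reads as the reverse complement, which is the case in all of the 4 but Yars.
Gars, chr6:55037961-55037988 (+): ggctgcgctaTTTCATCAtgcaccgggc
Iars, chr13:49682127-49682154 (+): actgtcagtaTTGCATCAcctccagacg
Tars, chr15:11399656-11399683 (−): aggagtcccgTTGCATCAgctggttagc
Yars, chr4:129189896-129189923 (+): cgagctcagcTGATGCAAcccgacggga
The matches lie 30 and 15 bases before the start in Gars and Tars, and 7 and 3 bases after it in Iars and Yars. The mitochondrial gene with the most reads, Iars2, is shown for contrast by the 250 bases before its start, which hold no match.
Iars2, chr1:185329402-185329651 (−): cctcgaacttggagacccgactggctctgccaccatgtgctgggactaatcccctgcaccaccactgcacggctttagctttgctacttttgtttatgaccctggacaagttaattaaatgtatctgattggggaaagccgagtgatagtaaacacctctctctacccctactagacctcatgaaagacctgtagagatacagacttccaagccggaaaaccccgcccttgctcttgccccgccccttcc
A match is a description of letters in this window and no measure of binding.

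At an adjusted p under 0.05, 0 synthetase genes differed between SEVO and CTRL tumours, among 0 of all 7561 tested genes (0%). The quasi-likelihood test of edgeR gave a lowest Benjamini-Hochberg adjusted p of 0.741, and 330 tested genes (4.36%) had an unadjusted p under 0.05. DESeq2 gave 0 genes at an adjusted p under 0.05 and 265 (0.625%) at an unadjusted p under 0.05. Of the 35 members, 20 had enough reads to be tested, 15 cytosolic and 5 mitochondrial. The 2 members with an unadjusted p under 0.05 were Kars, lower in SEVO tumours, and Tars2, higher in SEVO tumours, while 290 tested genes (3.84%) had such a p and were lower and 40 (0.529%) were higher. The study used thresholds of 0.02 on the unadjusted p and of 1.5 on the linear fold, which 0 of the 20 passed, against 8 tested genes higher (0.106%) and 71 lower (0.939%). Since these are bulk samples, fewer cells of a type and less RNA per cell cannot be told apart.

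All 15 tested cytosolic genes had a log2 fold change below 0 in SEVO over CTRL tumours, against 51.1% of all tested genes, but only 12 of the 15 did with scaling by library size alone, 10 with no filter on low counts and 11 in DESeq2. Those 3 settings moved the median log2 fold change of the same 7561 genes to 0.217, 0.443 and 0.285, from -0.02, and 14 of the 15 cytosolic genes lay below that median in each of them. The median over the 15 was -0.68, with a range from -1.40 to -0.10. No adjusted p among them was below 0.741, and none of the 15 had SEVO and CTRL tumours that did not overlap. Without CTRL 1, SEVO 1 or SEVO 3 the median was -0.42, -0.33 and -1.07, respectively. Of the 5 tested mitochondrial genes, 3 lay below 0 and 2 above, with a median of -0.13 and a range from -0.49 to 0.88. That median lay above 0 in 7 of 17 alternatives, at up to 0.39. With no filter on members, all 19 cytosolic genes and 14 of the 16 mitochondrial genes had a lower mean CPM in SEVO than in CTRL tumours, and the exceptions were Tars2 and Iars2. Without CTRL 1 or without SEVO 1, the count of cytosolic genes was 16 of 19, and the mitochondrial count was 11 to 14 of 16 with single tumours omitted (11 without CTRL 1, 12 without SEVO 2). The share of unfiltered genes with a lower mean CPM was not counted, so these counts have no background. Genes at large leaned lower in SEVO tumours when no filter was used. Over 42423 genes the log2 fold changes then had a median of -0.383 in edgeR and -0.551 in DESeq2. Of the 15 tested cytosolic genes, 13, 14 and 12 were below 0 without CTRL 1, CTRL 3 and SEVO 1.

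**Figure D1:**
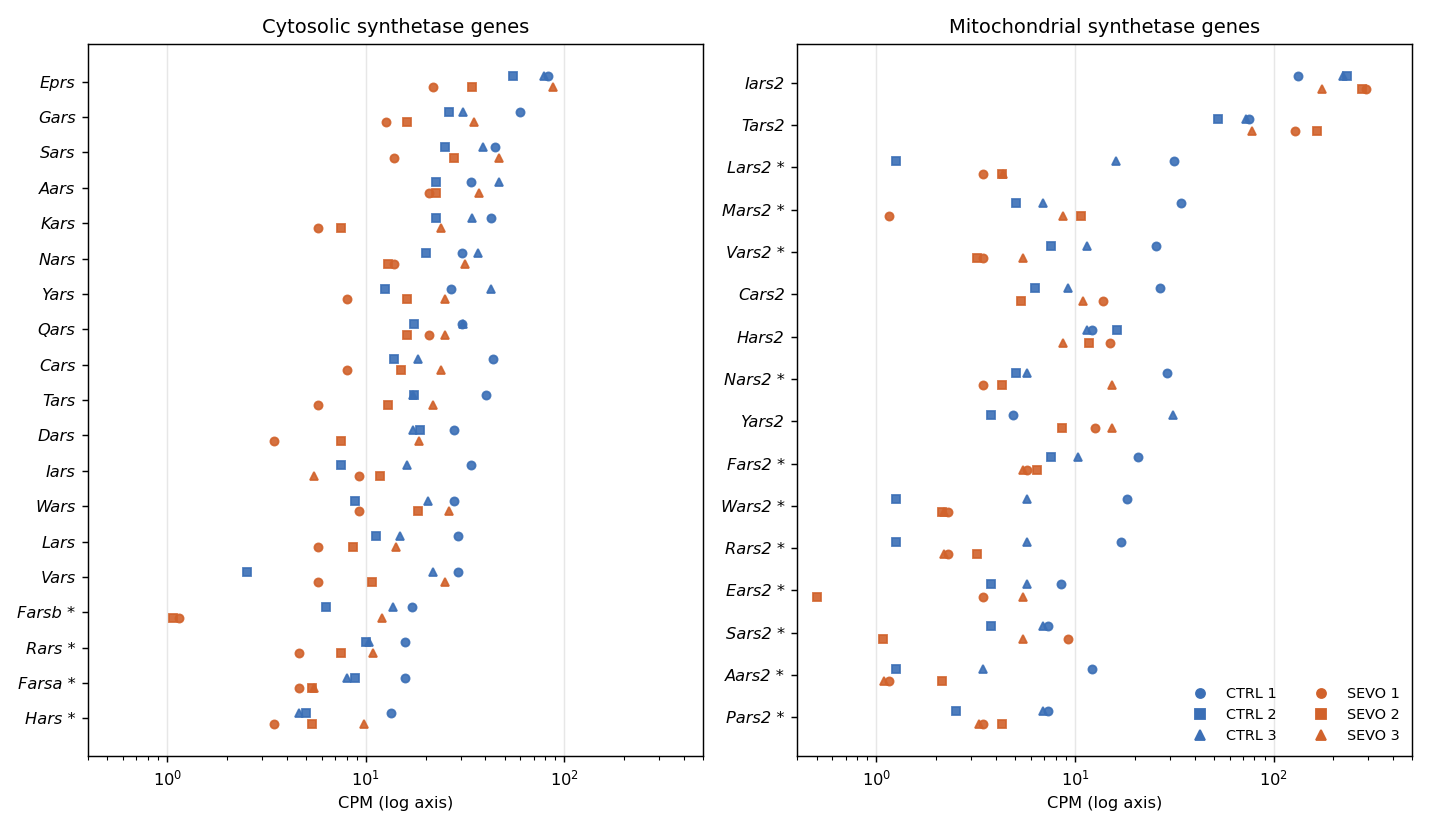
CPM of each of the 35 synthetase genes in each tumour on a log axis, with 1 point per tumour, CTRL in blue and SEVO in orange, genes in the order of their mean, an asterisk for genes too low to be tested, and the value of 0 reads in Ears2 drawn at 0.5. Tars2 is the gene whose 3 SEVO tumours all lie to the right of the 3 CTRL tumours, while the cytosolic genes overlap except for Farsa.

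**Figure D2:**
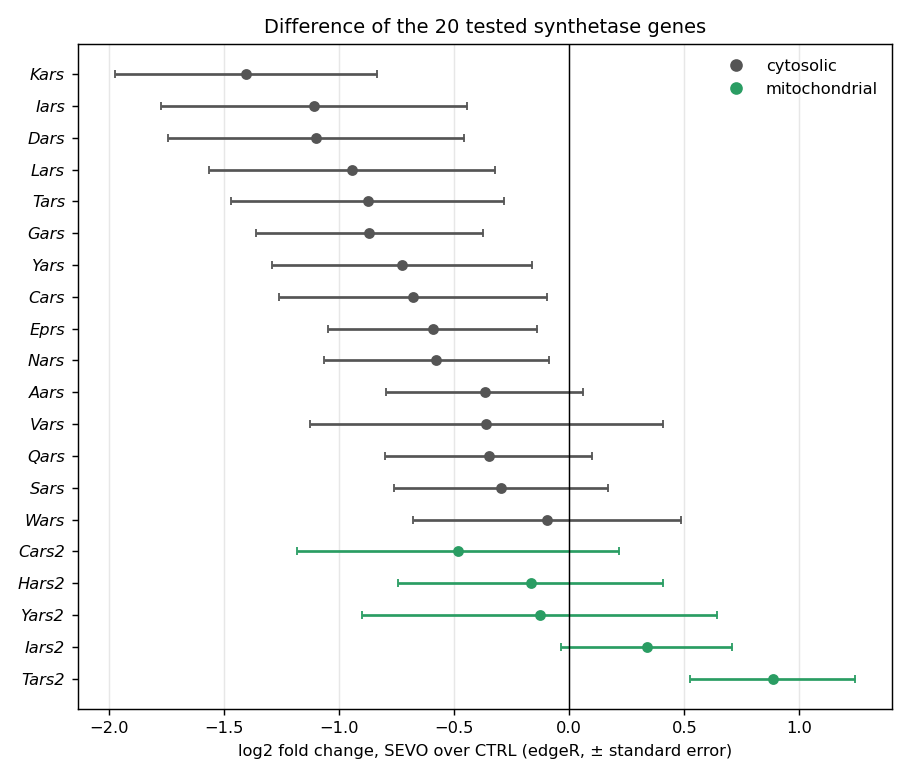
Log2 fold change (SEVO over CTRL, edgeR, x axis) of the 20 tested synthetase genes with its standard error as bars. The 15 cytosolic genes lie between -1.40 and -0.10, of which 12, 10 and 11 stay below 0 with library size only, no filter and DESeq2, and Tars2 lies at 0.88.

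Kars, the lysine enzyme of both compartments and a member of the multisynthetase complex (ENSMUSG00000031948.14, chr8:111993443-112011323, minus strand), had the lowest p of the cytosolic genes. It had 42.5, 22.6 and 34.4 CPM in CTRL 1, 2 and 3 and 5.75, 7.51 and 24.0 CPM in SEVO 1, 2 and 3. The lower values were those of SEVO 1 and 2, while SEVO 3 lay within the CTRL range. The mean was 33.2 ± 10.02 vs. 12.4 ± 10.1 CPM (SD, n = 3, CTRL vs. SEVO), and the log2 fold change was -1.40 ± 0.57 (SE, adjusted p = 0.741 from edgeR), where SE is the standard error. Without SEVO 3 the log2 fold change was -2.25, with an adjusted p of 0.329 from edgeR, and Kars then passed the thresholds of the study, as did 454 of 8383 tested genes that were lower (5.42%). It also passed without CTRL 2 (-1.48, adjusted p = 0.106 from edgeR), as did 1021 of 8961 genes that were lower (11.4%). The unadjusted p of Kars was not under 0.05 in 7 of 12 alternatives, namely library size only, no filter, DESeq2 and without CTRL 1, CTRL 3, SEVO 1 or SEVO 2, with log2 fold changes from -1.32 to -0.93.

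Dars, the aspartate enzyme of the complex (chr1:128363707-128417368, minus strand), had 27.9, 18.8 and 17.2 CPM in CTRL and 3.45, 7.51 and 18.5 CPM in SEVO 1, 2 and 3. SEVO 3 again lay among the CTRL tumours. Its log2 fold change was -1.10 ± 0.64 (SE, adjusted p = 0.741 from edgeR), and without SEVO 3 it was -1.88. Iars, the isoleucine enzyme (chr13:49682100-49734267, plus strand), had 34.0, 7.53 and 16.1 CPM in CTRL and 9.20, 11.8 and 5.45 CPM in SEVO, so that CTRL 1 and 3 stood above the SEVO tumours and CTRL 2 lay among them. Its log2 fold change was -1.11 ± 0.67 (SE, adjusted p = 0.741 from edgeR). Lars, the leucine enzyme, Eprs, which joins glutamate and proline to their tRNAs, and Qars, the glutamine enzyme, had log2 fold changes of -0.94, -0.59 and -0.35. Over the 6 tested genes of the complex the median was -1.02, and over the 9 tested cytosolic genes outside it the median was -0.58. These medians are descriptions, and their difference was not tested.

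Gars, the glycine enzyme of both compartments (chr6:55038007-55079500, plus strand), had 59.5, 26.3 and 31.0 CPM in CTRL and 12.7, 16.1 and 34.9 CPM in SEVO tumours. SEVO 3 lay above 2 of the CTRL tumours. The log2 fold change was -0.87 ± 0.49 (SE, adjusted p = 0.741 from edgeR). Tars, the cytosolic threonine enzyme (ENSMUSG00000022241.6, chr15:11382301-11399665, minus strand), had 40.1, 17.6 and 17.2 CPM in CTRL and 5.75, 12.9 and 21.8 CPM in SEVO tumours. CTRL 1 stood apart from the other CTRL tumours, and SEVO 3 lay above both of these. The mean was 24.95 ± 13.1 vs. 13.5 ± 8.05 CPM (SD, n = 3, CTRL vs. SEVO), with a log2 fold change of -0.88 ± 0.59 (SE, adjusted p = 0.741 from edgeR).

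Wars, the tryptophan enzyme, whose gene is induced by interferon gamma (chr12:108860030-108894174, minus strand), had 27.9, 8.78 and 20.7 CPM in CTRL and 9.20, 18.2 and 26.2 CPM in SEVO tumours. The groups overlapped over nearly their whole range, with a log2 fold change of -0.10 ± 0.58 (SE, adjusted p = 0.95 from edgeR). Sars, the serine enzyme, had 25.1 to 44.9 CPM in CTRL and 13.8 to 46.9 CPM in SEVO tumours, and Nars, the asparagine enzyme, had 20.1 to 36.7 and 12.9 to 31.6 CPM. Their log2 fold changes were -0.30 ± 0.47 (SE) and -0.58 ± 0.49 (SE). The signs of Sars and Wars were not stable, and both were above 0 with library size only, with no filter, in DESeq2 and without SEVO 1. The tested genes not yet named were Aars (alanine), Cars (cysteine), Vars (valine) and Yars (tyrosine), with log2 fold changes from -0.73 to -0.36. Of the 5 genes with a promoter match, all tested, the median log2 fold change was -0.87, with a range from -1.11 to -0.37. It was -0.59 over the 5 tested cytosolic genes with a window and no match, with a range from -1.40 (Kars) to -0.30. Over the 5 tested cytosolic genes with no window it was -0.58. The ranges overlapped, and the difference between these medians was not tested.

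The 4 cytosolic genes below the filter, Farsa and Farsb, which encode the subunits of the phenylalanine enzyme, Hars, the histidine enzyme, and Rars, the arginine enzyme, had 1 to 14 reads per tumour. Farsa had 13, 7 and 7 reads in CTRL and 4, 5 and 5 in SEVO tumours. Its groups did not overlap in reads or CPM, as was the case with SEVO below CTRL for 1.89% of tested genes in reads and 4.39% in CPM. These shares are of tested genes, and Farsa was below the filter. Farsb had 14, 5 and 12 reads in CTRL and 1, 1 and 11 in SEVO tumours, and SEVO 3 lay among the CTRL tumours.

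The SEVO tumours were uneven across the cytosolic genes. SEVO 3 lay above SEVO 1 and SEVO 2 in 18 of the 19 cytosolic genes, against 5 of the 16 mitochondrial genes. SEVO 1 was the lowest of all 6 tumours in 13 of the 19, and CTRL 1 the highest in 13 of the 19. CTRL 1 was also the highest in 11 of the 16 mitochondrial genes. The shares of all tested genes with such an order were not counted, so these counts have no background. Most of the mitochondrial genes were below the filter, where few reads set the order.

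Tars2 (ENSMUSG00000028107.14, chr3:95739976-95760206, minus strand) was the synthetase gene with the largest value above 0. It was on the list of changed genes that the study drew up from these same samples, so its values are a description and no independent evidence. It had 62, 42 and 63 reads in CTRL 1, 2 and 3 and 111, 154 and 71 reads in SEVO 1, 2 and 3, or 75.3, 52.7 and 72.3 CPM against 128, 165 and 77.4 CPM. Each SEVO tumour exceeded each CTRL tumour, SEVO 3 by a narrow margin over CTRL 1, as was the case with SEVO above CTRL for 4.17% of tested genes in CPM and 7.92% in reads. The mean was 66.8 ± 12.3 vs. 123 ± 44.0 CPM (SD, n = 3, CTRL vs. SEVO), with a log2 fold change of 0.88 ± 0.36 (SE, adjusted p = 0.741 from edgeR), and its p ranked 129 of the 7561 tested genes. The exact permutation test gave a two-sided p of 0.1, the smallest that 3 tumours against 3 allow. Tars2 passed the study's thresholds in edgeR with no filter on low counts (log2 fold change 1.45, adjusted p = 0.793), where 100 of 42423 genes passed above (0.236%), and in edgeR without SEVO 3 (1.18, adjusted p = 0.329), where 25 of 8383 did (0.298%). It also passed in DESeq2 (1.28, adjusted p = 0.989), where 26 genes passed above (0.0613%) and 23 below (0.0542%) of 42423. Its unadjusted p was not under 0.05 in 5 of 13 alternatives, namely at least 10 reads in every tumour, the replicate block and without CTRL 3, SEVO 1 or SEVO 2, with log2 fold changes from 0.64 to 1.02. None of its exon bases lie opposite an annotated exon of another gene.

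Iars2, the mitochondrial isoleucine enzyme (ENSMUSG00000026618.11, chr1:185284726-185329396, minus strand), had 132, 235 and 224 CPM in CTRL and 293, 278 and 174.5 CPM in SEVO tumours. SEVO 1 and 2 lay above every CTRL tumour and SEVO 3 below 2 of them. The log2 fold change was 0.34 ± 0.37 (SE, adjusted p = 0.787 from edgeR). An overlap of 2148 of its 8885 exon bases (24.2%) is shared with opposite-strand exons of Rab3gap2 and 2010103J01Rik, and as the strand setting of the counting is not given in the sources used here, reads of these genes cannot be told apart in the shared stretch. Rab3gap2 had 60, 136 and 115 reads in CTRL and 112, 162 and 71 in SEVO tumours, with a log2 fold change of 0.02.

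Cars2, Hars2 and Yars2, the mitochondrial enzymes for cysteine, histidine and tyrosine, had far fewer reads. Yars2 (chr16:16302965-16309640, plus strand) had 4, 3 and 27 reads in CTRL and 11, 8 and 14 in SEVO tumours. Its highest and its lowest tumour were both CTRL tumours, and its log2 fold change of -0.13 ± 0.77 (SE) became 1.52 ± 1.11 (SE) without CTRL 3. Cars2 had 22, 5 and 8 reads in CTRL and 12, 5 and 10 in SEVO tumours (log2 fold change -0.49 ± 0.70, SE), and Hars2 had 10, 13 and 10 against 13, 11 and 8 (log2 fold change -0.17 ± 0.58, SE). The adjusted p from edgeR was 0.811 or more for these 3 genes, and the sign of each turned under at least 1 alternative.

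The 11 mitochondrial genes below the filter were Aars2, Ears2, Fars2, Lars2, Mars2, Nars2, Pars2, Rars2, Sars2, Vars2 and Wars2, with 0 to 28 reads per tumour and a median of 4.5. Vars2, the mitochondrial valine enzyme, had 21, 6 and 10 reads in CTRL and 3, 3 and 5 in SEVO tumours, and its groups did not overlap in reads or CPM. Fars2, the phenylalanine enzyme, had 20.6, 7.53 and 10.3 CPM against 5.75, 6.44 and 5.45 CPM, without overlap in CPM but with overlap in reads, where CTRL 2 and SEVO 2 both had 6. Such a lack of overlap with SEVO below was found for 1.89% of tested genes in reads and 4.39% in CPM. Vars2 and Fars2 were below the filter, and the share over genes this low was not counted. Lars2, the leucine enzyme, had 26, 1 and 14 reads against 3, 4 and 4, so that CTRL 2 lay below all SEVO tumours. Mars2 and Nars2, the methionine and asparagine enzymes, had 28 and 24 reads in CTRL 1 and 1 to 14 reads in each other tumour. Ears2, the glutamate enzyme, had 0 reads in SEVO 2, which allows up to 3.22 CPM at 3 reads, and 3 to 7 in the other tumours. The arginine, alanine, tryptophan, proline and serine genes Rars2, Aars2, Wars2, Pars2 and Sars2 had 1 to 15 reads in each tumour, which limits the precision of any difference.

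Added over all 19 members, the cytosolic genes had 645, 312 and 504 CPM in CTRL and 178, 257.5 and 485 CPM in SEVO tumours. SEVO 1 and 2 were the lowest, but SEVO 3 lay close to CTRL 3. The mean was 487 ± 167 vs. 307 ± 159 CPM (SD, n = 3, CTRL vs. SEVO), a ratio of 0.631 within the spread between tumours. The 16 mitochondrial genes had 463, 354 and 433 CPM in CTRL and 501, 511 and 346 CPM in SEVO tumours, with a mean of 416 ± 56.3 vs. 453 ± 92.7 CPM and a ratio of 1.09. Their sum was mostly Tars2 and Iars2, which took 44.9% to 81.2% of the mitochondrial synthetase reads in CTRL and 72.9% to 86.8% in SEVO tumours. The other 14 mitochondrial genes had 255, 66.5 and 137 CPM in CTRL and 80.5, 67.6 and 93.8 CPM in SEVO tumours, so that CTRL 1 and 3 stood above the rest and CTRL 2 lay below the SEVO tumours. Their mean was 153 ± 95.3 vs. 80.6 ± 13.1 CPM, a ratio of 0.528. A mean of log2(CPM + 1), which weights each gene equally, differed by -0.72 for the cytosolic, -0.55 for the 16 mitochondrial and -0.71 for the 14 mitochondrial genes, each in SEVO minus CTRL.

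**Figure D3:**
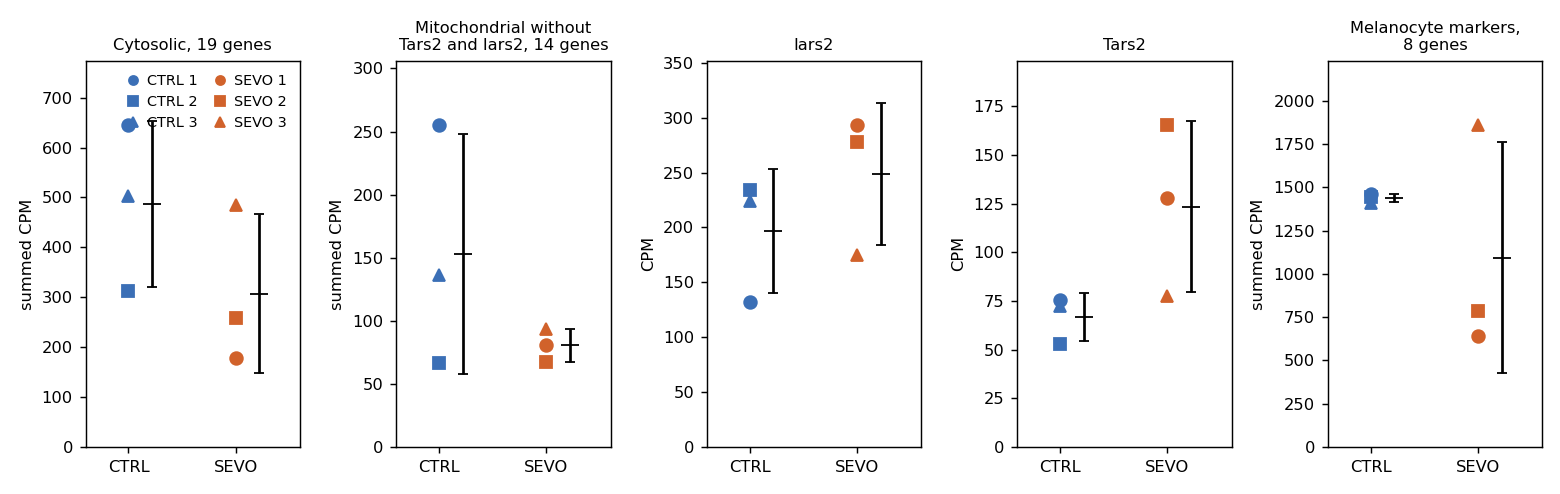
CPM per tumour (y axis, from 0, a scale of its own in each panel) summed over the cytosolic genes, over the mitochondrial genes without Tars2 and Iars2, for Iars2, for Tars2 and summed over 8 melanocyte markers, with the mean and SD (n = 3) beside the points. In the cytosolic panel SEVO 3 lies at 485 CPM near CTRL 3 at 504 CPM, and in the Tars2 panel SEVO 3 lies at 77.4 CPM near CTRL 1 at 75.3 CPM.

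Set against the other genes of its compartment, Tars2 took 14.9% to 16.7% of the mitochondrial synthetase reads in CTRL and 22.4% to 32.4% in SEVO tumours (16.0% ± 0.95 vs. 26.7% ± 5.10, SD, n = 3). Its log2(CPM + 1) lay 1.997, 3.12 and 2.65 above the mean of the other 15 mitochondrial genes in CTRL and 4.18, 4.72 and 3.27 above it in SEVO tumours. The groups overlapped in neither measure, but both contain the Tars2 reads by which the gene was put on the study's list. The Tars2 to Tars ratio of CPM was 1.88, 3 and 4.20 in CTRL and 22.2, 12.8 and 3.55 in SEVO tumours, so that SEVO 3 lay among the CTRL tumours. The log2 ratio of all mitochondrial to all cytosolic CPM was -0.48, 0.18 and -0.22 in CTRL and 1.49, 0.99 and -0.49 in SEVO tumours, and SEVO 3 was the lowest of the 6. With Tars2 and Iars2 left out the mean of this log2 ratio was -1.82 in both groups.

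Counted reads, which were only 2.06% to 4.61% of the uniquely aligned reads, were compared between genes per kb of exon. The strand setting is missing for every gene, so the order and ratios below describe counted reads and may not be those of transcript levels. The elongation factor genes Eef1a1 and Eef2, for example, had means of 139 and 125 CPM in CTRL tumours, against 197 CPM for Iars2. The reason was not tested. Of the exon bases of Iars2, 24.2% lie opposite other genes. As the strand setting is not given, its level and its ratio to Iars cannot be freed of reads of those genes. The highest mean over the 6 tumours was that of Iars2, with 25.1 ± 6.87 CPM per kb (SD, n = 6), followed by Tars2 with 13.7 ± 6.12, Gars with 9.64 ± 5.37 and Sars with 6.41 ± 2.50 CPM per kb. The distance from Iars2 to Tars2 was larger than the SD of either gene, and that from Tars2 to Gars was smaller. By group, Gars lay above Tars2 in CTRL tumours (12.5 ± 5.76 vs. 9.63 ± 1.77 CPM per kb, SD, n = 3) and below it in SEVO tumours (6.80 ± 3.84 vs. 17.8 ± 6.35 CPM per kb). At the other end Aars2, Ears2 and Wars2 had 0.742, 0.87 and 0.892 CPM per kb. Of 16 pairs of a cytosolic and a mitochondrial gene for the same amino acid, the cytosolic gene was higher per kb in all 6 tumours in 6 pairs, the alanine, leucine, asparagine, tryptophan, glutamate and proline pairs. The pairs are not independent, since Eprs enters both the glutamate and the proline pair, and Fars2 is paired with both Farsa and Farsb. The mitochondrial genes of these 6 pairs were all below the filter. The mitochondrial gene was higher in all 6 tumours in 2 pairs, by 6.09-fold in CTRL and 16.7-fold in SEVO tumours for Iars2 over Iars and by 2.28-fold and 7.80-fold for Tars2 over Tars, as ratios of the group means of CPM per kb.

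Summed markers of cell types are given beside these values. The 8 melanocyte markers, Mlana, Pmel, Tyr, Tyrp1, Dct, Mitf, Sox10 and Gpnmb, had summed levels of 1459, 1443 and 1411 CPM in CTRL and 639, 783 and 1859 CPM in SEVO tumours, and 8 of 8 had a lower mean in SEVO tumours. SEVO 1 and 2 were the lowest tumours and SEVO 3 the highest, the same order within the SEVO group as for the cytosolic synthetase sum. The ratio of cytosolic synthetase to melanocyte marker CPM was 0.442, 0.217 and 0.357 in CTRL and 0.279, 0.329 and 0.261 in SEVO tumours. All SEVO tumours lay inside the CTRL range of 0.217 to 0.442, which is wide and rests on only 3 tumours. The ratio of mitochondrial synthetase to melanocyte marker CPM was 0.245 to 0.317 in CTRL and 0.784, 0.652 and 0.186 in SEVO 1, 2 and 3. Both ratios were added after the data had been seen. The monocyte and macrophage markers summed to 204 to 281 CPM in CTRL and 231 to 327 CPM in SEVO tumours, of which Csf1r made up 107 to 262 and 192 to 295.5 CPM. This sum is thus mostly Csf1r, of whose 5774 exon bases 873 (15.1%) lie opposite Hmgxb3. In CTRL 1, the highest tumour for most synthetase genes, the markers of T and NK cells (88.6 CPM), endothelium (110.5 CPM), fibroblasts (163 CPM) and keratinocytes (47.4 CPM) were also at their highest, against ranges of 8.78 to 50.5, 11.3 to 50.2, 18.2 to 61.1 and 2.51 to 10.3 CPM in the other tumours. A lower mean in SEVO than in CTRL tumours was found for 7 of 7 markers of T and NK cells, 6 of 6 of fibroblasts, 4 of 4 of keratinocytes, 4 of 5 of endothelium, 8 of 11 of monocytes and macrophages and 2 of 5 of erythroid cells. Most of these markers were below the filter, and the share of genes this low with a lower mean was not counted. The erythroid markers ranged from 149 to 262 CPM in CTRL and from 193 to 220 CPM in SEVO tumours. The part of cell composition in the synthetase values was not tested.

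Other genes of the pathway were looked at from lists. The scaffold proteins that hold the multisynthetase complex together are encoded by Aimp1, Aimp2 and Eef1e1, of which 2 were tested, with log2 fold changes of 0.02 and 0.17 (Aimp2, adjusted p = 0.901 from edgeR). Of the 1654 exon bases of Aimp2, 487 (29.4%) lie opposite Eif2ak1. Cytosolic elongation factors, which carry charged tRNAs to the ribosome and move it along, had 4 of 5 genes tested, all 4 below 0, with a median of -0.53. The lowest p among them belonged to Eef1b2, an exchange factor, with a log2 fold change of -0.60 ± 0.36 (SE, adjusted p = 0.741 from edgeR). Eef1b2 had 57.1, 56.5 and 57.4 CPM in CTRL and 31.1, 26.8 and 54.5 CPM in SEVO tumours. The groups of Eef1b2 did not overlap in CPM, as was the case with SEVO below for 4.39% of tested genes. They did overlap in reads, where CTRL 3 and SEVO 3 both had 50. For Eef1b2, SEVO 3 was again the SEVO tumour nearest to the CTRL tumours. Eef1g, which was below the filter, had 6, 8 and 9 reads in CTRL and 5, 0 and 5 in SEVO tumours. Its groups did not overlap in CPM either, but the share of tested genes does not cover it. Of 13 mitochondrial translation factors 5 were tested, 1 below 0 and 4 above, with a median of 0.07, while over all 13 the mean CPM was lower in SEVO tumours in 9 and higher in 4. Mtif3, a mitochondrial initiation factor, had the lowest p in that list, with a log2 fold change of 0.46 ± 0.48 (SE, adjusted p = 0.779 from edgeR), and 1505 of its 5127 exon bases (29.4%) lie opposite Gtf3a. Of the 4 genes for proofreading and synthetase-like proteins only Prorsd1 was tested, with a log2 fold change of -0.04 ± 0.48 (SE).

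Genes of the amino acid response, through which ATF4 acts on many cytosolic synthetase genes, were mostly low. Of 16 such genes 4 were tested, Atf4, Ddit3, Mthfd2 and Psph, with a median of -0.16 and an adjusted p of at least 0.741 from edgeR. Ddit3, which encodes the stress factor CHOP, had the lowest p, with 78.9, 120 and 91.8 CPM in CTRL and 146, 161 and 125 CPM in SEVO tumours. Each SEVO tumour exceeded each CTRL tumour, as was the case for 4.17% of tested genes in CPM and 7.92% in reads. The log2 fold change of Ddit3 was 0.57 ± 0.32 (SE, adjusted p = 0.741 from edgeR). Of its 1713 exon bases, 81 (4.73%) lie opposite Gm4189 and Mars, and 10.4% of those of Psph lie opposite Cct6a. Atf4 itself had 12.5 to 18.4 CPM in CTRL and 8.58 to 22.9 CPM in SEVO tumours (log2 fold change -0.16 ± 0.58, SE). Over all 16 genes 13 had a lower mean CPM in SEVO tumours. Of these, Atf5, Trib3, Chac1, Psat1 and Shmt2, at 0 to 15 reads per tumour, did not overlap in CPM, as was the case with SEVO below for 4.39% of tested genes, and only Atf5 and Trib3 did not overlap in reads either (1.89% of tested genes). These shares are of tested genes, whereas Atf5, Trib3, Chac1, Psat1 and Shmt2 were below the filter. No share over genes this low was counted, for the lack of overlap or for the 13 of 16. With no filter, genes at large leaned lower in SEVO tumours (median -0.383 in edgeR). Of 12 interferon response genes, looked at beside Wars, only Irf7 was tested, with a log2 fold change of 0.00 ± 0.40 (SE, adjusted p = 0.997 from edgeR).

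The genes around Tars2 were looked at after its values had been seen. Within 250 kb on either side, 11 other genes were tested, 8 with a log2 fold change above 0 and 3 below, with a median of 0.46. Of all tested genes, 48.9% lay above 0, and whether the 8 of 11 exceed that share was not tested. Ecm1, which adjoins it on the same strand (chr3:95734147-95739569), had 36, 37 and 49 reads in CTRL and 74, 113 and 44 in SEVO tumours, a log2 fold change of 0.79 ± 0.37 (SE). Rprd2, next to Tars2 on its other side and on the same strand (chr3:95760341-95818863), had 43, 23 and 46 against 61, 81 and 34 reads and a log2 fold change of 0.53 ± 0.39 (SE). In Ecm1, Tars2 and Rprd2 alike, SEVO 2 was the highest tumour and SEVO 3 the lowest of the SEVO tumours. Adamtsl4, also on the minus strand, had 193, 204 and 245 reads in CTRL and 491, 437 and 309 in SEVO tumours, a log2 fold change of 0.83 ± 0.36 (SE). It had no overlap of the groups, as was the case with SEVO above for 4.17% of tested genes in CPM and 7.92% in reads. Like Tars2 and Ciart (0.91 ± 0.44, SE), it was on the study's list from these samples. Anp32e and Mcl1, on the plus strand, had log2 fold changes of -1.21 ± 0.50 (SE) and -0.97 ± 0.58 (SE). The groups of Anp32e did not overlap in CPM, as was the case with SEVO below for 4.39% of tested genes. Those of Gm26594 (0.29 ± 0.58, SE) did not overlap in CPM either, with SEVO above. The adjusted p from edgeR was 0.741 or more for each of these neighbours.

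**Figure D4:**
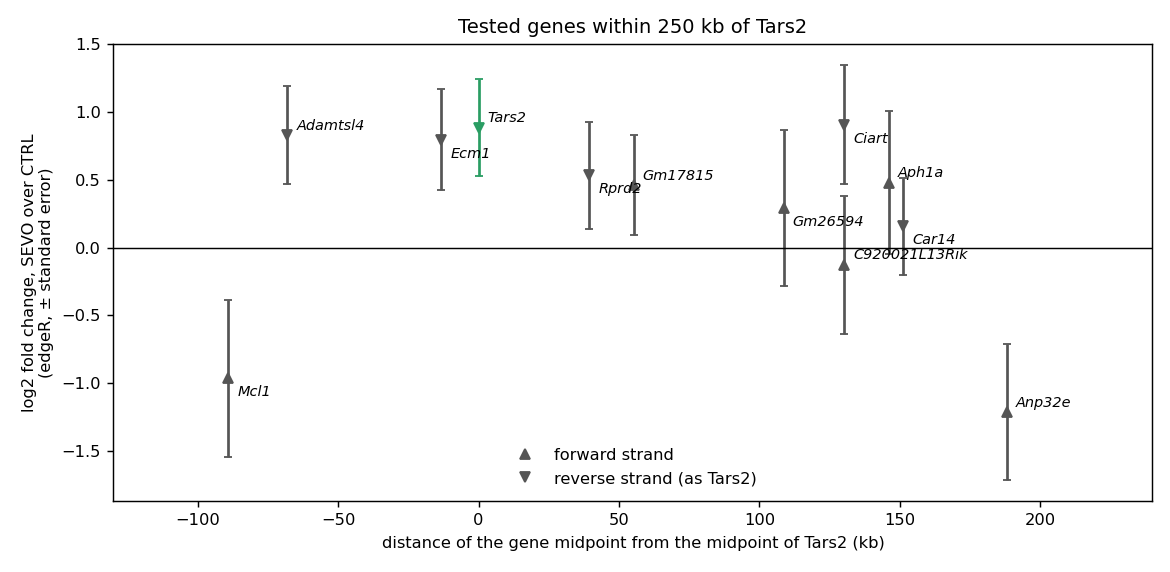
Log2 fold change (SEVO over CTRL, edgeR, y axis, bars for the standard error) of Tars2, in green, and the 11 other tested genes within 250 kb, by the distance between gene midpoints in kb (x axis), with triangles pointing up for the plus strand and down for the minus strand. Adamtsl4, Ecm1, Tars2 and Ciart lie between 0.79 and 0.91, and Mcl1 and Anp32e at -0.97 and -1.21.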

How the data were processed

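The values are unnormalized read counts of each gene, which the authors made with HTSeq 0.9.1 after removal of ribosomal reads, trimming with Trimmomatic 0.36 and alignment with STAR 2.6.0c to GRCm38.p6 with GENCODE M17 (versions from the submitters' processing notes). The strand setting and the library kit are not given in the sources used here. Rows of reads not counted on a gene were left out, and no file held a column of another sample. Of 53801 identifiers, 53706 matched GENCODE M21 (same build), used for names, positions and exon lengths. The members and lists were chosen with earlier results of these data known.

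All 6 tumours were compared with the quasi-likelihood test of edgeR 4.0.16 (R 4.3.3, TMM, filterByExpr, no covariates) on 7561 genes, with Benjamini-Hochberg adjustment. Standard errors were derived from its F statistic. CPM used TMM library sizes, with a pseudocount of 1 on the log scale. The code was tested on simulated data. The labels number the tumours as replicates without tying them to mice, so p-values measure only the spread between these samples.

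Genes were named singly by a rule: Tars2 and Tars, in each compartment the 4 tested genes with the lowest p and the 3 highest per kb of exon, Wars, Gars, Kars, each gene below the filter, and the lowest p of each pathway list. Others, such as the neighbours of Tars2, were chosen after their values were seen. Alternatives changed the scaling, the filter, the test (DESeq2 1.42.0), the thresholds, the members, a replicate block, or omitted single tumours. The sequence around the match of 1 gene is not reported here.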

Additional observations from a re-analysis of the deposited data

How the results depend on the processing

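Where a value changed, the cause was not tested. Both groups carry replicate numbers 1 to 3. Same-numbered tumours had correlations of -0.389, 0.322 and 0.109, which show no pairing by number but are too few to exclude one. With the replicate block, 1 gene had an adjusted p under 0.05, 129 genes passed the study's thresholds (6 higher, 123 lower), against 79 (8 higher, 71 lower), 1 synthetase gene did (Kars, against 0), Tars2 stood at 0.83, the mitochondrial minus cytosolic median at 1.03 and Yars2 at 0.33. Leaving out each tumour gave 0 to 31 genes at an adjusted p under 0.05 (31 without CTRL 2), 13 to 1449 genes at the thresholds (1449 without CTRL 2, 479 without SEVO 3, 13 and 14 without SEVO 1 and 2, 28 and 32 without CTRL 1 and 3), 0 to 3 synthetase genes (3 without SEVO 3, 2 without CTRL 2), Tars2 at 0.73 to 1.18 and the mitochondrial minus cytosolic median at 0.0113 (without SEVO 1) to 0.79. That median difference, 0.55 as reported, was 1.01 without Gm10800 and Gm10801, 1.06 with at least 10 reads in every tumour and 1.11 without members opposite another gene, and it turned to -0.11 with no filter and -0.17 in DESeq2, where all 35 genes enter. The genes at the thresholds were 266 with no filter (100 higher, 166 lower), 49 in DESeq2 (26 higher, 23 lower), 330 at a p under 0.05 and 60 with library size only (24 higher, 36 lower). The synthetase genes among them were 1 with no filter, 1 in DESeq2 and 2 at a p under 0.05, and Tars2 stood at 1.45 with no filter and 1.28 in DESeq2. The log2 ratio of summed mitochondrial CPM, 0.12, was -0.55 as a mean of log2(CPM + 1) and -0.92 without Tars2 and Iars2, an alternative chosen after seeing the data. Single log2 fold changes turned above 0 with library size only (Sars 0.0214, Hars2 0.0574, Yars2 0.13, Wars 0.26), with no filter (Sars 0.19, Cars2 0.19, Hars2 0.32, Yars2 0.32, Wars 0.47), in DESeq2 (Sars 0.0318, Hars2 0.15, Yars2 0.19, Wars 0.30) and with a tumour left out, where the ranges were -0.75 to 0.11 for Sars, -0.67 to 0.37 for Cars2, -0.31 to 0.15 for Hars2, -0.52 to 1.52 for Yars2 and -0.42 to 0.30 for Wars. Relative to the median of those of the 7561 genes that an alternative tested, the cytosolic median stayed below 0 and Tars2 above 0 in the alternatives run, but the cytosolic median lay above the median of all genes tested with no filter (-0.16 vs. -0.383) and in DESeq2 (-0.31 vs. -0.551). The 15 genes below the filter had 0 to 28 reads per tumour, which limits what their counts can show.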
